A study of Homo sapiens with 9 samples.

Results

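The cytosolic ribosome is built from ribosomal RNA and the cytosolic ribosomal proteins. Here the mRNAs of those proteins were described in HepG2 cells in which TRIB3 had been knocked down. Members were the genes whose symbol was RPL or RPS followed by a number, with or without a final A or X, together with RPLP0, RPLP1, RPLP2 and RPSA. This rule took 77 of 24204 gene symbols, 46 of the large (60S) subunit and 31 of the small (40S) subunit. HepG2 is a human liver cancer cell line. The 9 RNA-seq libraries were all from HepG2 cells infected with lentivirus and then selected with puromycin for 48 h, starting 48 h after infection, and the P2 generation of cells was collected. The virus carried a control short hairpin RNA (shCtrl, labelled Ctrl_shRNA) in 3 libraries, the first hairpin against TRIB3 (shTRIB3-1, labelled TRIB3 sh1) in 3, and the second hairpin against TRIB3 (shTRIB3-2, labelled TRIB3 sh2) in 3. Nothing in the labels says that the 3 libraries of a group came from separate cultures, so p-values measure the spread between these libraries only, which may be technical. The labels give high-glucose medium with serum and name no glutamine withdrawal, whereas the methods describe RNA from glutamine-deprived cells and the study's discussion speaks of knockdown with glutamine present, so the medium at harvest is uncertain.

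Nearly every ribosomal protein is present in a single copy per ribosome, and the genes are scattered over the chromosomes. Their mRNAs are among the most abundant of a growing cell, and most begin with a C followed by a run of pyrimidines, the TOP (terminal oligopyrimidine) motif, through which the kinase mTORC1 and the RNA-binding protein LARP1 set their translation and stability. TRIB3 is a pseudokinase induced when amino acids run short and is known as an inhibitor of AKT. Beyond their place in the ribosome, RPL5 and RPL11 bind 5S ribosomal RNA and, when ribosome assembly fails, the p53 ligase MDM2, and RPS6 is the ribosomal substrate of the S6 kinases.

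The start sites of 8 members are shown because these members span the range of change described below, from the 5 largest falls with shTRIB3-2 (RPS28, RPL3, RPS6, RPL13A, RPS9) to members with small changes (RPSA, RPLP0, RPL35). Each line gives 15 bases before and 15 bases from an annotated start of transcription, 5′ to 3′ on the gene's own strand (RefSeq, GRCh38.p14). Capitals mark a pyrimidine run that begins with a C at the annotated start and goes on for at least 4 more pyrimidines. In RPS28, which has no such run, they mark CACGTG, the letters of an E-box, and RPL3, whose run from the C is shorter than that, has no capitals.
RPS28, chr19:8321481-8321510, plus strand: tccccgaagCACGTGactcctctccgccag
RPL3, chr22:39319609-39319638, minus strand: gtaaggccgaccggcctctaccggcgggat
RPS6, chr9:19380222-19380251, minus strand: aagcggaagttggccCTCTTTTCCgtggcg
RPL13A, chr19:49487593-49487622, plus strand: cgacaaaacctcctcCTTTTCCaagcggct
RPS9, chr19:54200843-54200872, plus strand: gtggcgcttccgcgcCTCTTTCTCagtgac
RPSA, chr3:39406705-39406734, plus strand: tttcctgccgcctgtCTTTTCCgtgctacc
RPLP0, chr12:120201097-120201126, minus strand: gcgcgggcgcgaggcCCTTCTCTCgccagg
RPL35, chr9:124861943-124861972, minus strand: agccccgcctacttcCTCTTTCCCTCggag
Where a gene had several annotated starts, a start with the pyrimidine run was printed if there was one. The lines are therefore not an unbiased choice of starts. With this choice, the run was found at an annotated start of members that fell far and of members that changed little. Over the 62 members with an entry in the RefSeq promoter table, 46 (74.2%) had a C at an annotated start followed by at least 4 pyrimidines. The share was 7.61% of the 9088 tested genes with an entry. In both shares a gene was counted if any of its annotated starts had the run. Among members whose fall with shTRIB3-2 did not pass the test given below, RPSA and RPS10 had the run. RPL9, RPS15, RPS26 and RPL17 did not have it. Annotated starts can lie some bases away from the start used in HepG2, so a member without the run at this position may still carry it.

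The libraries held 34206726 to 36311029 fragments, a ratio of 1.06, as recovered from the deposited FPKM values (fragments scaled for gene length and for the fragments mapped in the library). The replicates of a group differed from each other by more than counting noise, so no library was a copy of another. All 7 markers of hepatocytes were expressed, and PTPRC, PECAM1, COL1A1 and DCN, markers of blood, endothelial and stromal cells, had at most 52 fragments in any library. Several markers moved with the groups, not all in 1 direction. Of the hepatocyte markers, ALB was at 97.3% of its shCtrl mean with shTRIB3-1 and 127% with shTRIB3-2, AFP at 98.8% and 160%, APOA1 at 154% and 162%, and TTR at 212% and 328%, whereas SERPINA1 was at 73.7% and 97.6%, APOB at 80.7% and 93.6%, and HNF4A at 85.1% and 95.3%. The biliary keratin KRT19 was at 270% and 266%. Their part in the ribosomal protein results was not tested. TRIB3 itself was at 67.9, 65.8 and 66.6 FPKM in the 3 shCtrl libraries, 34.1, 32.7 and 34.0 in shTRIB3-1 and 20.6, 20.7 and 20.4 in shTRIB3-2. All knockdown libraries lay below all control libraries, in the direction of their labels, and TRIB3 was lower with the second hairpin than with the first (log2 fold change -0.71 ± 0.03 SE, adjusted p = 9.54e-09). Here and below, adjusted p-values come from limma fitted to all 9 libraries and 11265 tested genes on log2(FPKM + 0.1), with Benjamini-Hochberg adjustment, and a gene passed at an adjusted p under 0.05.

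Ribosomal protein mRNA took a smaller share of the library with each hairpin, and a smaller share with the second than with the first. The 77 members took 3.49%, 3.76% and 3.71% of all fragments in the 3 shCtrl libraries, 3.23%, 3.36% and 3.33% in shTRIB3-1, and 2.52%, 2.68% and 2.51% in shTRIB3-2. The 3 groups did not overlap. The means were 3.66% ± 0.142, 3.31% ± 0.067 and 2.57% ± 0.0971 (SD, n = 3 each). Both subunits moved alike. The share of the large subunit was 2.14% ± 0.0747 with shCtrl, 1.95% ± 0.0333 with the first hairpin and 1.51% ± 0.0514 with the second, and that of the small subunit 1.51% ± 0.0677, 1.36% ± 0.0339 and 1.07% ± 0.0457 (SD, n = 3 each). The ratio of summed FPKM, large to small, stayed between 1.18 and 1.22 in the 9 libraries, and the ranges of the 3 groups overlapped. These libraries are bulk RNA scaled to their own total, so less ribosomal protein mRNA in every cell and more cells with little of it cannot be told apart.

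**Figure D1:**
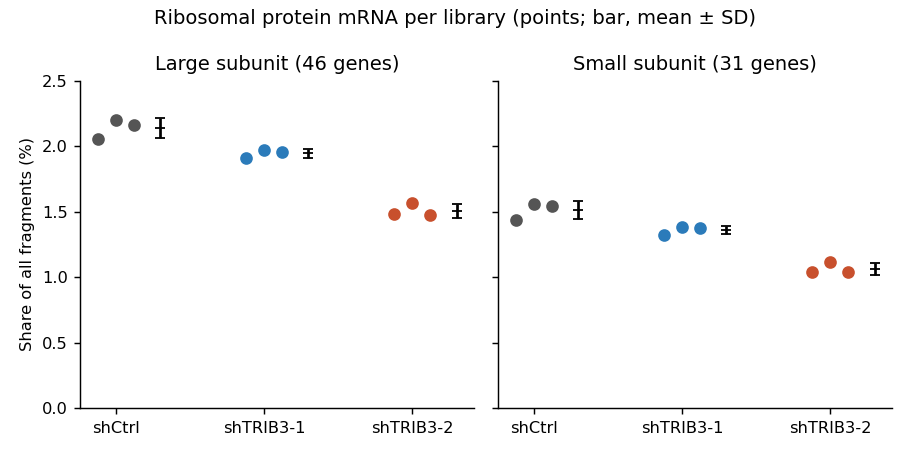
Share of all fragments (%, y axis) that fell on the 46 large subunit genes (left) and the 31 small subunit genes (right) in each library, with the mean and SD of 3 libraries beside the points. In both panels the 3 groups are separate, with shCtrl highest (large subunit mean 2.14%) and shTRIB3-2 lowest (1.51%).

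With the first hairpin the ribosomal protein mRNAs changed by small amounts. Of the 76 members that passed the filter on low values, 39 were lower with shTRIB3-1 than with shCtrl and 1 was higher, where 41.5% of all tested genes were lower and 32.9% higher. The median log2 fold change of the members was -0.12, against -0.06 over all tested genes. No member passed with a log2 fold change below -1, a group that held 6.1% of all genes. All 3 shTRIB3-1 libraries were below all 3 shCtrl libraries for 37 of 76 members, and 43.0% of all genes had this pattern. The members stayed close together, with an interquartile range of 0.20 on the log2 scale and extremes of -0.57 (RPS28) and 0.10 (RPL35), while the interquartile range over all tested genes was 0.64. The split of 1 higher and 39 lower members became 3 higher and 21 lower (27.6% of the members) when each library was centred on its median gene, where 34.8% of all tested genes were lower and 39.1% higher. The share of lower members was thus above that of all genes as deposited and below it after median centring. Leaving out 1 library gave 30 lower members (39.5%, against 38.3% of all genes, without shCtrl replicate 2) to 48 (63.2% against 39.4%, without shCtrl replicate 1).

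With the second hairpin nearly the whole set was lower. With shTRIB3-2, 70 of 76 members were lower than in shCtrl by the limma test and 0 were higher, adjusted or not, since all 76 fitted fold changes were negative. Among all tested genes 40.5% were lower and 35.4% higher. The median log2 fold change was -0.47 in the members (72.3% of the shCtrl level) and -0.03 over all tested genes, and the interquartile ranges were 0.30 and 0.68. All shTRIB3-2 libraries lay below all shCtrl libraries for 67 of 76 members, against 41.3% of all genes. Large falls were rare. RPS28, RPL3 and RPS6 passed with a log2 fold change below -1, which is 3 of 76 members, and 6.27% of all genes did so. The 6 members that did not pass were RPS10, RPS26, RPS15, RPL9, RPSA and RPL17, named here after their values were seen. Both hairpins are compared with the same 3 shCtrl libraries, so the 2 comparisons are not independent. Lower with both were 38 of 76 members, and 34.3% of all tested genes.

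The members were also lower with the second hairpin than with the first. In shTRIB3-2 against shTRIB3-1, 69 of 76 members were lower and 0 higher by the limma test (0 also at an unadjusted p under 0.05), with a median of -0.37, and 74 of 76 fitted fold changes were negative. Over all tested genes 20.7% were lower and 25.1% higher, with a median of 0.03. All 3 shTRIB3-2 libraries were below all 3 shTRIB3-1 libraries for 70 of 76 members and for 24.4% of all genes. TRIB3 was also lower with the second hairpin, as given above, and whether this difference has a part in the members' difference was not tested.

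**Figure D2:**
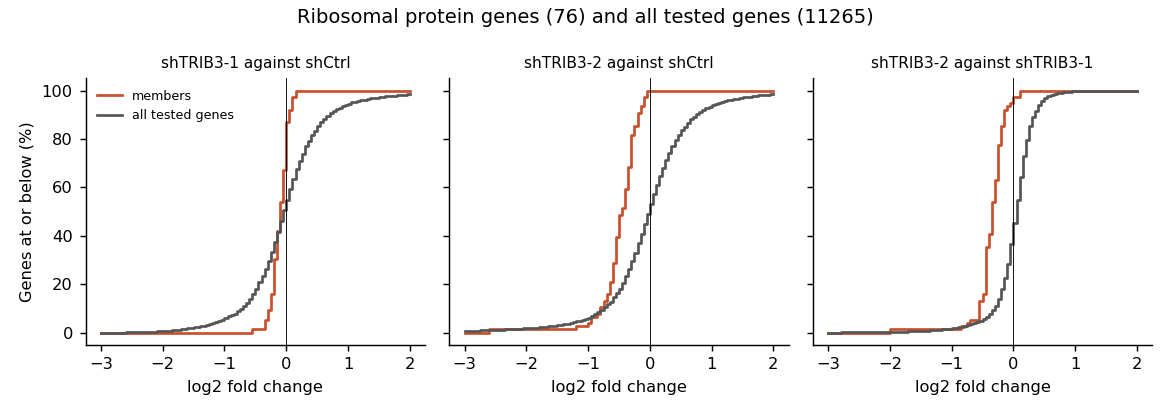
Cumulative share of genes (%, y axis) at or below each log2 fold change (x axis) for the 76 tested members (orange) and all 11265 tested genes (grey) in the 3 comparisons. The members' curve rises steeply near the median of all genes with shTRIB3-1 (members' median -0.12) and is shifted to the left with shTRIB3-2 (-0.47 against shCtrl, -0.37 against shTRIB3-1).

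By subunit, the counts were close. With shTRIB3-2, 43 of 45 tested large subunit genes and 27 of 31 small subunit genes were lower, with medians of -0.44 and -0.53. With shTRIB3-1 the counts were 22 of 45 (48.9%) and 17 of 31 (54.8%), with medians of -0.10 and -0.14. Of all tested genes, 40.5% were lower and 35.4% higher with shTRIB3-2, and 41.5% and 32.9% with shTRIB3-1. The same shares are the background for the counts of smaller groups below. The interquartile ranges of the log2 fold changes with shTRIB3-2 were 0.32 in the small and 0.30 in the large subunit, and in the small subunit RPS28 lay at the lower end and RPSA at the upper end.

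RPS28, a protein of the head of the small subunit that sits near the mRNA exit, fell furthest of the members tested, with either hairpin. It was at 79.7, 93.7 and 89.8 FPKM in shCtrl, 55.3, 61.5 and 60.4 in shTRIB3-1, and 13.3, 16.4 and 13.5 in shTRIB3-2. The 3 groups were separate, and the shTRIB3-2 libraries still held 604 to 759 fragments each. The log2 fold change was -0.57 ± 0.08 (SE, adjusted p = 3.5e-05) with shTRIB3-1 and -2.60 ± 0.08 (adjusted p = 3.86e-11) with shTRIB3-2, and -2.03 ± 0.08 (adjusted p = 4.68e-09) between the hairpins. RPS28 (ENSG00000233927.5) lies at chr19:8321158-8323340 on the plus strand. In the GENCODE v44 annotation 20.6% of its exon bases overlap a gene on the other strand, KANK3, and no exon base overlaps a gene on its own strand. NDUFA7, a neighbouring subunit of respiratory complex I, was at 42.1 FPKM on average in shCtrl, 39.0 in shTRIB3-1 and 38.8 in shTRIB3-2 and did not pass (adjusted p = 0.144 with shTRIB3-2).

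RPL3, which reaches toward the peptidyl transferase centre, had the next largest fall with shTRIB3-2. It was at 729, 767 and 775 FPKM in shCtrl, 587, 578 and 607 in shTRIB3-1, and 326, 330 and 321 in shTRIB3-2. No library of 1 group reached the range of another. The log2 fold change was -0.36 ± 0.03 (SE, adjusted p = 1.17e-06) with shTRIB3-1 and -1.22 ± 0.03 (adjusted p = 1.94e-11) with shTRIB3-2.

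RPS6, the substrate of the S6 kinases in the body of the small subunit, was at 577, 622 and 594 FPKM in shCtrl, 494, 518 and 516 in shTRIB3-1, and 288, 312 and 289 in shTRIB3-2. The groups were again separate, and the step between the hairpins was larger than the step from control to the first hairpin. Its log2 fold change was -0.23 ± 0.04 (SE, adjusted p = 0.000275) with shTRIB3-1 and -1.01 ± 0.04 (adjusted p = 4.25e-10) with shTRIB3-2, with -0.78 ± 0.04 (adjusted p = 5.48e-08) between hairpins. RPS9, an early-binding protein of the small subunit body, showed a similar pattern at 261, 304 and 303 FPKM in shCtrl, 247, 246 and 251 in shTRIB3-1 and 145, 154 and 146 in shTRIB3-2 (log2 fold change -0.22 and -0.96). RPS6, RPS9, RPL3 and RPS28 were the members with the largest differences between the hairpins.

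RPL13A, a large subunit protein also known for silencing inflammatory mRNAs outside the ribosome, was at 884, 958 and 957 FPKM in shCtrl, 705, 717 and 714 in shTRIB3-1 and 477, 509 and 455 in shTRIB3-2. Each step was larger than the spread within a group. Its log2 fold change was -0.39 ± 0.05 (SE, adjusted p = 7.03e-06) with shTRIB3-1 and -0.96 ± 0.05 (adjusted p = 1.62e-09) with shTRIB3-2. RPS15A, a protein of the small subunit body, had log2 fold changes of -0.31 with the first and -0.88 with the second hairpin (adjusted p = 4.14e-06 and 2.42e-10, limma).

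**Figure D3:**
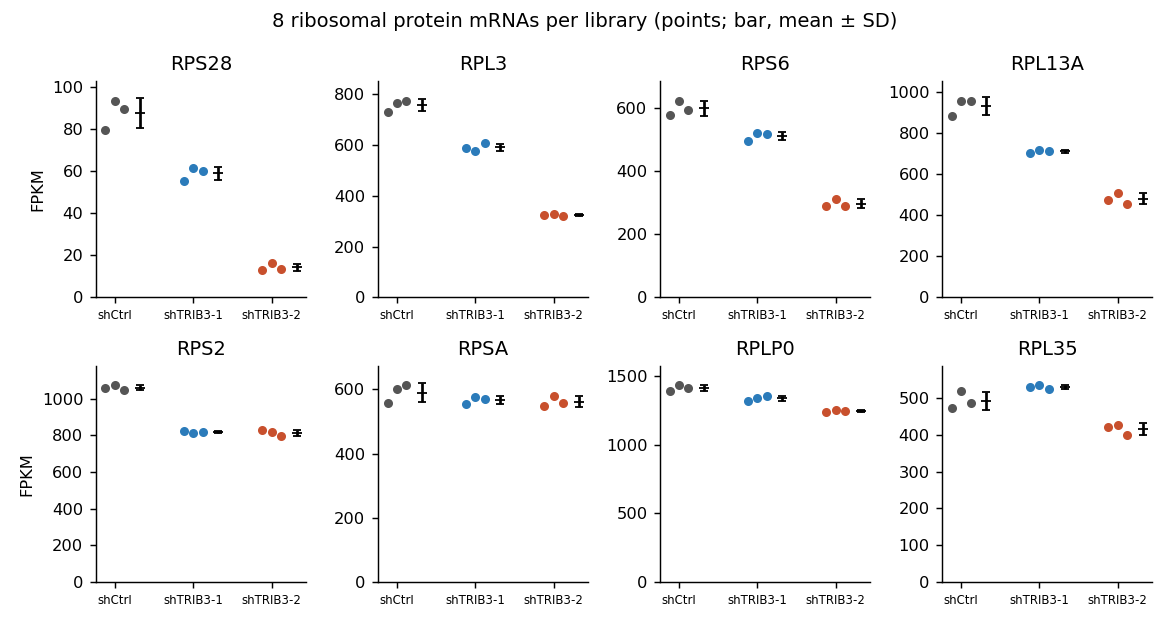
FPKM (y axis, from 0) of 8 members in each of the 9 libraries, with the mean and SD of each group beside the points. RPS28, RPL3, RPS6 and RPL13A fell in 2 steps, RPS2 fell equally with both hairpins, RPSA overlaps between the groups, RPLP0 fell to 88.2% of its control mean with shTRIB3-2, and RPL35 is higher with shTRIB3-1 and lower with shTRIB3-2.

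The other members of the head of the small subunit, through which tRNA and mRNA pass, had smaller fold changes than RPS28. In the head, 12 of 14 genes were lower with shTRIB3-2 (median -0.43) and 7 of 14 with shTRIB3-1 (median -0.16). RPS19, the gene most often mutated in Diamond-Blackfan anaemia, was at 177, 209 and 209 FPKM in shCtrl, 167, 179 and 172 in shTRIB3-1 and 149, 164 and 143 in shTRIB3-2. Its log2 fold changes were -0.20 (adjusted p = 0.0153) and -0.39 (adjusted p = 0.000154, limma), and 1 shTRIB3-1 library lay above the lowest control library. RPS27A, which is made as a fusion with ubiquitin, fell by 0.14 (adjusted p = 0.0402) and 0.35 (adjusted p = 8.38e-05, limma). RPS12 and RPS18, among the 5 most abundant members, had log2 fold changes of -0.04 (adjusted p = 0.615) and -0.12 (adjusted p = 0.0547) with shTRIB3-1 and fell by 0.25 and 0.57 with shTRIB3-2. RPS15 did not pass with either hairpin, with log2 fold changes of 0.07 (adjusted p = 0.33) and -0.12 (adjusted p = 0.0838). Of the low-abundance RPS29, shCtrl replicate 1 held 28.5 FPKM, below the 29.1 and 29.4 of 2 shTRIB3-1 libraries, and the log2 fold changes were -0.27 (adjusted p = 0.0325) and -0.47 (adjusted p = 0.00108, limma). With shTRIB3-1, the calls of RPS19, RPS27A and RPS29 were lost when shCtrl replicate 2, shCtrl replicate 3 or shTRIB3-1 replicate 1 was left out, and after median centring.

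In the body and platform of the small subunit, which carry the decoding site and the early assembly proteins, 15 of 17 genes were lower with shTRIB3-2 (median -0.56) and 10 of 17 with shTRIB3-1 (median -0.13). RPS4X, the X-linked copy of RPS4, fell by 0.24 and 0.69 (adjusted p = 1.47e-05 and 1.01e-09, limma). RPS2, at the mRNA entry, did not have this step between the hairpins. It was at 1060, 1073 and 1049 FPKM in shCtrl, 822, 811 and 818 in shTRIB3-1 and 829, 817 and 794 in shTRIB3-2. The knockdown libraries of the 2 hairpins overlapped and were all below the controls, with a log2 fold change of -0.38 ± 0.03 (SE) with each hairpin. The difference between hairpins was -0.01 (adjusted p = 0.889), and it turned to 0.11 (adjusted p = 0.0211) under quantile normalization.

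RPSA, the laminin receptor precursor on the back of the small subunit, was at 557, 600 and 613 FPKM in shCtrl, 554, 577 and 570 in shTRIB3-1 and 547, 581 and 559 in shTRIB3-2. Its 3 groups overlapped, and the log2 fold changes were -0.06 ± 0.04 (SE, adjusted p = 0.223) and -0.07 ± 0.04 (adjusted p = 0.145). The sign of the value with shTRIB3-2 turned to 0.20 (adjusted p = 6.1e-05) under quantile normalization, so no direction can be given for RPSA. RPS26, which contacts mRNA upstream of the start codon, was at 96.8, 83.5 and 81.2 FPKM in shCtrl, 75.2, 76.6 and 74.9 in shTRIB3-1 and 77.1, 85.7 and 73.9 in shTRIB3-2. It was lower with shTRIB3-1 (-0.20, adjusted p = 0.0133), and with shTRIB3-2 its value was -0.14 (adjusted p = 0.0625).

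In the large subunit, the P stalk recruits the elongation factors and consists of RPLP0, RPLP1, RPLP2 and RPL12 at its base. The fold changes of RPLP0, RPLP1 and RPLP2 were nearer 0 than the members' median with each hairpin, and that of RPL12 was further from 0 (-0.28 and -0.53). All 4 genes were lower with shTRIB3-2, with a median of -0.26 against -0.47 for the 76 members, and 2 of 4 with shTRIB3-1, with a median of -0.05. RPLP0, the most abundant member, was at 1393, 1431 and 1414 FPKM in shCtrl, 1319, 1341 and 1355 in shTRIB3-1 and 1236, 1255 and 1247 in shTRIB3-2. Its groups were separate but close, at 94.7% and 88.2% of the control mean (log2 fold change -0.08, adjusted p = 0.0457, and -0.18, adjusted p = 0.000266), and the value with shTRIB3-1 was 0.00 (adjusted p = 0.972) after median centring and did not pass when any 1 of 7 libraries was left out. RPLP1 and RPLP2 had log2 fold changes of -0.02 (adjusted p = 0.724) and 0.01 (adjusted p = 0.931) with shTRIB3-1 and fell by 0.20 and 0.32 with shTRIB3-2. RPL12 was the member of this group that fell most, from 630, 627 and 634 FPKM in shCtrl to 501, 528 and 532 in shTRIB3-1 and 428, 457 and 425 in shTRIB3-2.

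The proteins that bind 5S ribosomal RNA or MDM2 were lower in all 3 cases with shTRIB3-2. RPL5 was at 571, 599 and 612 FPKM in shCtrl, 450, 475 and 476 in shTRIB3-1 and 320, 349 and 329 in shTRIB3-2, with log2 fold changes of -0.35 ± 0.04 (SE, adjusted p = 8.69e-06) and -0.84 ± 0.04 (adjusted p = 2.41e-09). Its partner RPL11 fell less with shTRIB3-2, from 521, 574 and 563 FPKM to 416, 429 and 388, a log2 fold change of -0.43 ± 0.05 (adjusted p = 2.84e-06). With shTRIB3-1, RPL11 was at 520, 508 and 530 FPKM, a range that overlapped with the controls (adjusted p = 0.0967). RPL23 fell by 0.24 with the first hairpin (adjusted p = 0.000356, limma) and by 0.61 with the second (adjusted p = 8.37e-08).

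Around the exit of the peptide tunnel, 6 of 7 genes were lower with shTRIB3-2 (median -0.40), and 2 were lower and 1 higher with shTRIB3-1 (median -0.05). RPL23A, a docking site for the signal recognition particle and for chaperones, fell most there, by 0.30 and 0.65 (adjusted p = 2.66e-06 and 1.93e-09, limma). RPL35, a neighbour of RPL23A at the exit, was the only member that passed in the upward direction with shTRIB3-1. It was at 472, 519 and 485 FPKM in shCtrl, 529, 534 and 523 in shTRIB3-1 and 422, 427 and 398 in shTRIB3-2. The shTRIB3-1 libraries were all above and the shTRIB3-2 libraries all below the controls, with log2 fold changes of 0.10 ± 0.04 (SE, adjusted p = 0.0334) and -0.24 ± 0.04 (adjusted p = 0.00013). The rise with shTRIB3-1 did not pass after TPM rescaling (0.05, adjusted p = 0.264) or when shCtrl replicate 1 or 3 or any shTRIB3-1 library was left out (adjusted p from 0.0552 to 0.115). RPL39, the smallest of the exit proteins, was at 0.07 (adjusted p = 0.267) with shTRIB3-1 and fell by 0.30 with shTRIB3-2 (adjusted p = 0.000481, limma).

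Among other large subunit members, RPL10, which completes the tRNA sites late in assembly, had a log2 fold change of -0.07 (adjusted p = 0.166) with shTRIB3-1 and fell by 0.55 with shTRIB3-2 (adjusted p = 1.07e-07, limma). In the annotation 50.5% of its exon bases overlap a gene on the other strand, and whether counting used the strand is not settled by the sources. RPL22, an RNA-binding protein at the surface of the subunit, fell by 0.20 and 0.51 (adjusted p = 0.00029 and 6.33e-08, limma). RPL9 was at 347, 395 and 403 FPKM in shCtrl, 396, 421 and 409 in shTRIB3-1 and 338, 393 and 338 in shTRIB3-2. These groups overlapped, and RPL9 did not pass against the controls (log2 fold change 0.10 and -0.10, adjusted p = 0.18 with each hairpin). RPL38, known for its part in the translation of Hox mRNAs, was at 0.08 (adjusted p = 0.109) with shTRIB3-1 and fell by 0.20 with shTRIB3-2 (adjusted p = 0.000996, limma).

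To set members against each other within a library, the mean log2 value of the 76 members was subtracted from each gene. This removes any scaling of the library and the shared fall, and the members' values then add up to 0 by construction. With shTRIB3-1, 18 members lay above and 18 below their shared change, with 39.7% and 27.3% of all tested genes above and below it. With shTRIB3-2, 32 members lay above and 22 below, against 71.3% and 10.9% of all genes. The members thus did not fall by equal amounts. In both comparisons 14 members were below and 16 above in the same direction. The share of all tested genes with this pattern was not computed, so these counts describe the members only. Furthest below were RPS28 (-0.44 and -2.09), RPL3 (-0.23 and -0.70), RPL13A (-0.26 and -0.45) and RPS6 (-0.10 and -0.50), and furthest above were RPL9 (0.23 and 0.41), RPS15 (0.20 and 0.39), RPL38 (0.21 and 0.31) and RPL35 (0.23 and 0.27). RPS2 lay below with shTRIB3-1 (-0.25, adjusted p = 4.24e-05, limma) and above with shTRIB3-2 (0.13, adjusted p = 0.00997). RPSA, whose own level did not pass, lay above with shTRIB3-2 by 0.45 ± 0.04 (SE, adjusted p = 5.45e-10). For shTRIB3-1 these counts depended on single libraries. Above were 9 without shTRIB3-1 replicate 2 and 11 without replicate 3, and below were 11 without shTRIB3-1 replicate 1 or replicate 3.

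The levels in shCtrl spanned a wide range. Of the 76 tested members, 66 were above 100 FPKM, the median was 407 FPKM, and 36 of the 100 most abundant tested genes were members. The median over all tested genes was 8.4 FPKM. Among the most abundant members per kilobase were RPLP0 (1413 ± 18.9), RPS12 (1242 ± 137), RPS2 (1061 ± 11.8) and RPS18 (1057 ± 62.1; mean FPKM ± SD, n = 3). RPLP0 lay above the other 3 in all shCtrl libraries. RPS2 and RPS18 overlapped in their range, and the lowest RPS12 value (1085) lay above the highest of RPS2 (1073) and below the highest of RPS18 (1095). The least abundant were RPL37 (46.1 ± 3.98), RPS29 (34.6 ± 5.29), RPL17 (10.0 ± 1.71), RPS10 (3.397 ± 0.564) and RPL36A (0.0488 ± 0.0213).

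RPL36A, RPS10 and RPL17 are essential parts of the ribosome, and their low values bear on how genes were counted. RPL36A had 1 to 5 fragments in a library and was the 1 member that did not pass the filter of at least 1 FPKM in 3 libraries. RPS10 had 59 to 119 fragments and RPL17 had 323 to 459. In GENCODE v44 each of the 3 shares exons with a readthrough gene that joins it to its neighbour (RPL36A-HNRNPH2, RPS10-NUDT3 and RPL17-C18orf32), over 8.4%, 31.5% and 32.9% of its exon bases. Of the neighbours, HNRNPH2 had 0 to 4 fragments in a library, C18orf32 had 51 to 125 and NUDT3 had 2863 to 4526. The part of shared exons in these values was not tested, and neither a change nor a lack of change is read from the 3 genes. RPS10 and RPL17 still enter the counts of tested members, as genes that did not pass. All 77 members also have pseudogenes named after them, 1588 in all, and the handling of reads that match several copies is not stated, so small differences in level between members are uncertain.

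The libraries with replicate number 1 were low for the members in every group. The values of 72 of 76 members in shCtrl replicate 1, 67 in shTRIB3-1 replicate 1 and 68 in shTRIB3-2 replicate 1 lay below their group mean, and so did 68 in shTRIB3-2 replicate 3. The median deviation ranged from -0.06 in shCtrl replicate 1 to 0.07 in shTRIB3-2 replicate 2 on the log2 scale, less than the median fall with shTRIB3-2. The median coefficient of variation of a member within a group was 4.55% in shCtrl, 2.72% in shTRIB3-1 and 4.31% in shTRIB3-2.

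Long and short members fell with shTRIB3-2. Lengths were recovered from the FPKM values and ran from 390 to 7573 bases. The shortest 25 members had a median log2 fold change of -0.35 with shTRIB3-2, the middle 25 of -0.54 and the longest 26 of -0.49. Across the 76 members, which share libraries and are not independent replicates, the Spearman correlation of log2 fold change with length was -0.16 with shTRIB3-1 and -0.17 with shTRIB3-2, and with the shCtrl level -0.07 and -0.06. Neither length nor level ordered the members' changes closely.

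Among close relatives outside the rule, 8 were tested. With shTRIB3-2, 4 of them were lower and 0 higher (median -0.09), and with shTRIB3-1, 5 were lower and 1 higher (median -0.19). FAU encodes the ribosomal protein eS30 as a fusion with a ubiquitin-like protein. FAU was at 227, 290 and 278 FPKM in shCtrl, 276, 292 and 282 in shTRIB3-1 and 264, 295 and 258 in shTRIB3-2. Its groups overlapped, with log2 fold changes of 0.10 (adjusted p = 0.24) and 0.04 (adjusted p = 0.623). RACK1, a WD-repeat protein bound to the head of the small subunit, moved like the members that fell most, from 739, 708 and 711 FPKM to 567, 538 and 547 with shTRIB3-1 and 407, 427 and 411 with shTRIB3-2 (log2 fold change -0.38 and -0.79, adjusted p = 6.34e-07 and 7.43e-10).

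Paralogs that can stand in for a member had low or middling levels. RPL22L1, the paralog of RPL22, was at 7.02, 7.70 and 6.99 FPKM in shCtrl, 4.88, 5.09 and 4.43 in shTRIB3-1 and 6.21, 6.65 and 6.10 in shTRIB3-2. It fell by 0.58 with the first hairpin and 0.19 with the second, and was higher with the second than with the first (0.39 ± 0.07 SE, adjusted p = 0.000472), where RPL22 was lower (-0.31, adjusted p = 2.79e-05). RPS27L, a p53-responsive paralog of RPS27, fell by 0.27 with shTRIB3-1 (adjusted p = 0.000196, limma) and was at 0.09 (adjusted p = 0.109) with shTRIB3-2, whereas RPS27 fell by 0.10 (adjusted p = 0.049) and 0.59 (adjusted p = 1.21e-07, limma). RPL36AL, at 120 to 149 FPKM in all 9 libraries, fell by 0.23 and 0.17, and the level of its relative RPL36A is the unreliable one described above. RPL7L1 fell by 0.16 with shTRIB3-1 (adjusted p = 0.00087, limma) and was at -0.06 (adjusted p = 0.0993) with shTRIB3-2, and RPL26L1 was at 0.02 and 0.01 (adjusted p = 0.69 and 0.767). The muscle paralog RPL3L and RPL39L were at or near 0, and no line for RPL10L was analysed here.

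Other genes of the translation machinery changed to differing degrees. Of 21 translation elongation and other TOP genes, 19 were lower with shTRIB3-2 and the other 2, FAU and EEF1D, did not pass (median -0.60), and 15 were lower and 2 higher with shTRIB3-1 (median -0.15). This list holds FAU and RACK1 and some initiation factors as well. EEF1A1, the factor that brings aminoacyl-tRNA to the ribosome, had a log2 fold change of -0.14 (adjusted p = 0.00559) and -0.58 (adjusted p = 3.62e-08, limma), and EEF2, the translocase, of -0.41 and -0.89 (adjusted p = 1.24e-07 and 9.41e-11). The leading gene was HNRNPA1, an RNA-binding protein, at -0.95 and -1.33. Of 34 initiation factors, 18 were lower and 8 higher with shTRIB3-2 (median -0.21), and 16 and 10 with shTRIB3-1 (median -0.05). Among all tested genes 40.5% were lower and 35.4% higher with shTRIB3-2, and 41.5% and 32.9% with shTRIB3-1. By the mean of the 2 fold changes, among genes that passed with both hairpins, the leading initiation factors were EIF4B, the cofactor of the eIF4A helicase (-0.48 and -0.89), and, upward, EIF5, the GTPase-activating factor of initiation (0.35 and 0.52).

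The genes that control ribosomal protein production did not move in 1 direction. In the mTORC1, TOP and MYC list, 6 of 13 were lower and 2 higher with shTRIB3-2 (median -0.08). With shTRIB3-1, 4 were lower and 2 higher (median -0.01). Of all tested genes, 40.5% were lower and 35.4% higher with shTRIB3-2, and 41.5% and 32.9% with shTRIB3-1. EIF4EBP1, the translation repressor that mTORC1 inactivates, fell by 0.40 and 1.14 (adjusted p = 1.04e-05 and 6.87e-10, limma), and LARP4B, a poly(A)-associated RNA-binding protein, rose by 0.20 and 0.19. MTOR itself was at 0.00 (adjusted p = 0.981) and 0.08 (adjusted p = 0.105). MYC, chosen after its values were seen, was at 26.1, 24.6 and 23.8 FPKM in shCtrl, 28.9, 27.5 and 27.0 in shTRIB3-1 and 17.5, 16.4 and 16.9 in shTRIB3-2. Its groups were separate, higher with the first hairpin (0.16, adjusted p = 0.00507) and lower with the second (-0.55, adjusted p = 1.7e-07). Of the 8 dedicated chaperones of ribosomal proteins, 3 were lower with each hairpin and 1 was higher with shTRIB3-1, led by PDCD2, the chaperone of RPS2, at -1.03 ± 0.04 (SE, adjusted p = 9.48e-10) and -1.04 ± 0.04 (adjusted p = 7.34e-10). The difference between hairpins was 0.00 for PDCD2 (adjusted p = 0.957) and -0.01 for RPS2 (adjusted p = 0.889). It was also small for RPSA (-0.01, adjusted p = 0.843) and RPS26 (0.06, adjusted p = 0.477, limma). RPL41 (-0.08, adjusted p = 0.184), RPS29 (-0.21, adjusted p = 0.119, limma) and the low-count RPS10 and RPL17 did not pass between the hairpins either. RPL41 was lower with each hairpin (-0.23 and -0.32). Of all tested genes, 20.7% were lower and 25.1% higher between the hairpins, and the rest did not pass. Whether the levels of PDCD2 and RPS2 are linked was not tested.

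Mitochondrial ribosomal proteins, which are built into a different ribosome, were lower to a like extent with either hairpin. Of 77 tested, 52 were lower and 10 higher with shTRIB3-1 (median -0.23) and 47 and 12 with shTRIB3-2 (median -0.25). The shares over all tested genes were 41.5% lower and 32.9% higher with shTRIB3-1, and 40.5% and 35.4% with shTRIB3-2. Between the hairpins their median was 0.00, with 18 lower and 13 higher, where the cytosolic members' median was -0.37. In that comparison 20.7% of all tested genes were lower and 25.1% higher. They were led by MRPL47 (-1.63 and -1.50) and, upward, MRPS6 (0.80 and 0.39).

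**Figure D4:**
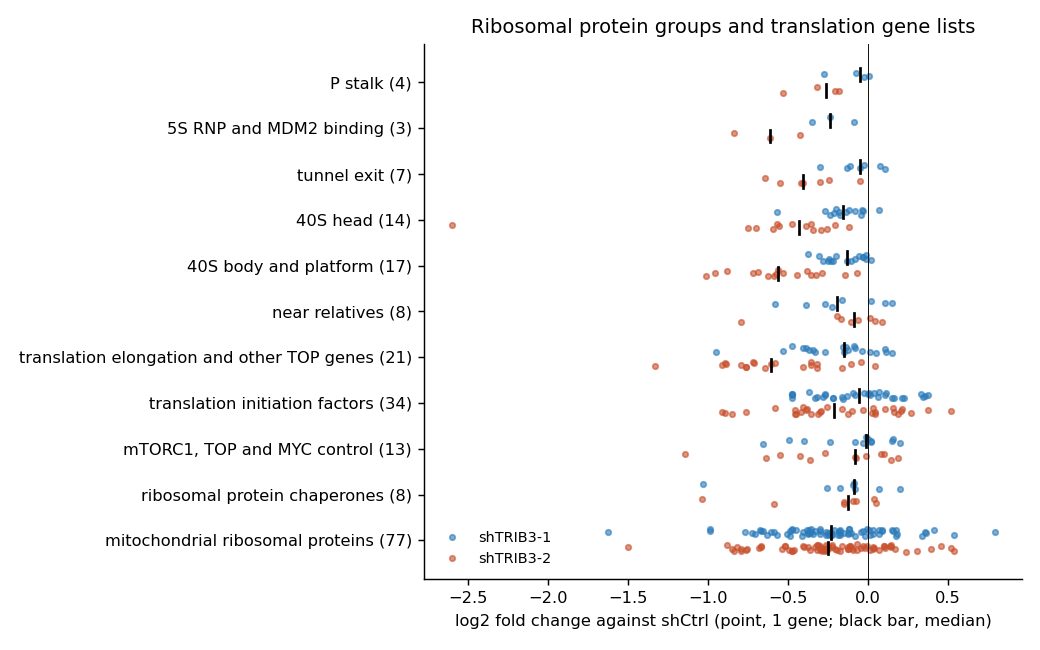
Log2 fold change against shCtrl (x axis) of each tested gene in the ribosomal protein groups and the translation gene lists (rows, with the number of tested genes), for shTRIB3-1 (blue) and shTRIB3-2 (orange), with the median as a black bar. With shTRIB3-2 the medians are -0.60 for elongation and other TOP genes, -0.56 for the 40S body and platform, -0.26 for the P stalk and -0.08 for the mTORC1, TOP and MYC list.

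The members' changes were also set beside the sequence at their start. With shTRIB3-2 the 45 tested members with the pyrimidine run had a median log2 fold change of -0.51 and the 16 without it -0.41, and with shTRIB3-1 the order was the other way, at -0.10 and -0.16. In the 300 bases from 250 before to 50 after the start, the letters CACGTG (the same on both strands) were found in 4 of 62 members, RPL13A, RPL19, RPS19 and RPS28, which is 6.45%, against 12.7% of the tested genes. These 4, which include RPS28 and RPL13A, had a median of -0.29 with shTRIB3-1 and -0.68 with shTRIB3-2. The 57 tested members without the letters had medians of -0.12 and -0.46. With shTRIB3-2, RPS28 (-2.60) and RPL13A (-0.96) fell further than that -0.46, and RPL19 (-0.40) and RPS19 (-0.39) fell less. G-quadruplexes are 4-stranded DNA structures of guanine, and the study concerns their resolution at promoters. Letters of the form of 4 runs of at least 3 G with 1 to 7 bases between them, on either strand, were found in 6 of 62 members (RPL18, RPLP2, RPS16, RPS19, RPS26 and RPS28), which is 9.68%, against 40.7% of the tested genes. With shTRIB3-2 these 6 had a median of -0.39 and the 55 tested members without it -0.47, and with shTRIB3-1 the order was the other way, at -0.20 and -0.12. The study's own motif search at BRCA1 and RAD51AP1 allowed shorter runs of G, so motifs of that kind can be missed here. A gene was counted for each feature if any of its annotated starts had it. A match in letters is a description and does not show a structure or a bound factor.

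The hairpins' own target letters were compared with the members after the fall of RPS28 had been seen. Both targets lie in the coding sequence of TRIB3, shown with the letters that RPS28 shares with the second one in capitals.
shTRIB3-2 target, chr20:391473-391493: gccgtgctctTCCGCCAGAtg
RPS28 shares these 9 letters in its 5′ UTR, in exon 1 (chr19:8321503-8321511). They hold 6 of the 7 letters that pair with the seed, bases 2 to 8 of the guide strand, and lack the one opposite base 2. These 6 letters were found in 51.3% of members and 74.0% of tested genes. Runs of at least 9 letters were shared with the shTRIB3-2 target by 12 of 76 members (15.8%) and by 15.3% of 10507 tested genes with a transcript. The longest run in any member was 10 letters for each hairpin, in RPS26 for shTRIB3-2. RPS26 did not pass with that hairpin. The whole seed match of shTRIB3-2 was found in 13.2% of members and 26.4% of tested genes, and the members with it had a median log2 fold change of -0.40 with shTRIB3-2, against -0.52 without it. All protein-coding transcripts of a gene were searched in full, so a match depends on their length and number. The shares of members and of tested genes were not adjusted for these.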

How the data were processed

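The deposited table gave FPKM values, computed by the authors, for 24204 gene symbols in 9 libraries. Per the labels, HTSeq, R 3.2.0 and GRCh38 were used, and the methods name STAR for alignment and DESeq2 for testing. The annotation release is not given in the sources used here, and the labels and the methods name different library kits. FPKM does not correct for composition.

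Fragments were recovered from FPKM: of 172769 values above 0, 100% were within 0.02 of a whole number at 1 length per gene. Intervals of counting were not used, since fragments carry no molecular identifiers. Genes with FPKM of at least 1 in at least 3 libraries (11265) were fitted as log2(FPKM + 0.1) with 3 group means in limma 3.58.1 (R 4.3.3; trended empirical Bayes, two-sided, Benjamini-Hochberg). The pseudocount understates changes of low genes. A second fit used values minus the mean of the members in each library.

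Members, gene lists and naming rules were chosen with earlier results of these data known. Named were members with the largest changes shared by both hairpins or above 1 in size, the 5 most and 5 least abundant, the 4 that differed most between hairpins, the 4 furthest above and below the members' mean, 16 members with known roles, and the leading gene of each other list. Some genes that these rules name are not reported here. Promoters came from RefSeq (GRCh38.p14, 62 of 77 members matched), and exons and transcripts from GENCODE v44. The authors' gene lengths matched GENCODE v44 for 0 of 77 members, so its overlaps are a guide. Alternatives were other pseudocounts, filters and scalings, the replicate block, 2 groups at a time, and leaving out each library.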

Additional observations from a re-analysis of the deposited data

Results flagged for a closer look

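RPL35 differed between the hairpins. It was higher than shCtrl with shTRIB3-1 and lower with shTRIB3-2, and the direct test of shTRIB3-2 against shTRIB3-1 gave a log2 fold change of -0.35 (adjusted p = 2.72e-05, limma), with 3 of 3 libraries lower. The rise with shTRIB3-1 alone was lost in 5 of the 9 fits that left out 1 library.

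RPS28 differed between the hairpins by a log2 fold change of -2.03, with 3 of 3 shTRIB3-2 libraries below all shTRIB3-1 libraries. In the same test 69 of 76 members (90.8%) were lower in shTRIB3-2 than in shTRIB3-1, against 20.7% of all tested genes.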

How the results depend on the processing

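The fall of the members with shTRIB3-2 kept its direction under every alternative run, with 64 (quantile normalization) to 74 (TPM rescaling, or without 1 library) lower members. The 64 were 84.2% of the members, against 37.2% of all genes. The 74 were 97.4%, against 41.5% after TPM rescaling and 38.2% without shTRIB3-2 replicate 2. Under quantile normalization 1 member was higher with shTRIB3-2 and 3 were higher than with shTRIB3-1, against 38.3% and 26.1% of all genes. The subunit medians with shTRIB3-2 were then -0.38 (large) and -0.36 (small). With shTRIB3-1 the count of lower members was 21 after median centring (27.6%, against 34.8% of all genes), where the subunit medians were -0.018 (large) and -0.057 (small), 52 after TPM rescaling (68.4%, against 45.3% of all genes), and 30 to 48 without 1 library. The count of higher members was 0 with all genes above 0 or TPM rescaling, 3 with median centring or the replicate block, 4 with quantile normalization, and 0 to 1 without 1 library. Of all genes, 20.0% were higher with all genes above 0 and 28.6% with TPM rescaling. The share was 39.1% with median centring, 33.2% with the replicate block, 36.3% with quantile normalization and 30.9% to 33.1% without 1 library. Members above their shared mean with shTRIB3-1 were 8 when all genes above 0 entered, and without 1 library 9 to 21 were above and 11 to 19 below. The causes were not tested. Same-numbered libraries were not treated as paired in the main fit. Over all tested genes, 0 of 9 correlations of their deviations were over 0.1 (from -0.07 to 0.09). However, 6 of 9 libraries correlated best with their own number, and over the members alone these correlations ran from -0.54 to 0.63. With the replicate block 44, 71 and 70 members were lower in shTRIB3-1, in shTRIB3-2 and between the hairpins. These are 57.9%, 93.4% and 92.1% of the members, against 41.9%, 40.7% and 21.2% of all genes. Signs turned for RPLP0 with shTRIB3-1 (0.0019, median centring), for RPSA with shTRIB3-2 (0.20) and, between the hairpins under quantile normalization, for RPLP0 (0.080), RPLP1 (0.037), RPS12 (0.0077), RPS2 (0.11), RPS27A (0.0026) and RPSA (0.16). TRIB3 stayed lower in all fits. At 1 to 5 fragments in a library, depth limits what can be seen of RPL36A. For the named members, 1629 fold changes were refitted under the alternatives: 82 no longer passed (38 with shTRIB3-1, 8 with shTRIB3-2 and 36 between the hairpins), 30 newly passed and 8 turned.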
